A study of Mus musculus with 5 samples.

Results

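Tpd52, Cd81, Rtn4, Tardbp and Lars2 were 5 of the 15597 genes read in single mouse cells. They were selected on the spread of their reads over wells of embryonic stem (ES) cells, relative to genes of equal mean, in earlier results of the same data. Their spread, and their levels from well to well and plate to plate within the ES cells, are therefore given as a description with no test. Only the level between cell types, which did not itself choose them, was tested. That test is not fully free of the choice. The choice required a read in at least 10% of the wells of every ES plate, and of no other type. A few wells can also carry much of a gene's sum. All 5 were read in each of the 5 plates.

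Cells were sorted 1 per well into plates of 96 wells, and each well carried its own 5-base barcode on the template-switching oligo. Of the 5 plates, 3 held the ES line R1, which the labels call embryonic stem cell-derived spheres. Another held Neuro2A, a neuroblastoma line of the mouse, and the last held fibroblasts from mouse embryos (MEF). The labels name no treatment, genotype or age for any group. MEF and Neuro2A were grown in DMEM with serum and the ES cells by another protocol, so cell type and medium cannot be told apart. A plate was taken as 1 sample. Whether separate cultures stand behind the 3 ES plates is not given in the sources used here, so a p-value covers the spread from plate to plate alone, which may be technical.

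Tpd52 encodes a coiled-coil protein of vesicle trafficking, and Cd81 a tetraspanin of the cell surface and of secreted vesicles. Rtn4 encodes a reticulon (Nogo) that shapes tubules of the endoplasmic reticulum, Tardbp the RNA-binding protein TDP-43, and Lars2 the leucyl-tRNA synthetase of mitochondria. They belong to no common pathway. The reads of a gene in a single cell carry both the cell's own transcripts and the losses and amplification of its cDNA.

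Only wells holding 1000 gene reads or more were used: 93, 66 and 94 wells of the ES plates (replicates 1, 2 and 3), 86 wells of Neuro2A and 92 wells of MEF. The median kept well held 101130, 2520.5, 17003, 26278 and 12749 gene reads in the same order. ES replicate 2 stood apart: 82.4% of its reads fell on repeats, and 1 well held 25.9% of the gene reads of its kept wells. The 8 ES markers summed to 6594 to 9733 counts per 1000000 gene reads (CPM) in the ES plates, against 0.317 in Neuro2A and 1.36 in MEF. The 8 fibroblast markers summed to 1859, 2263 and 5548 CPM in ES replicates 1, 2 and 3 and to 34010 in MEF, and all 8 had reads in ES replicate 3. Of the 8 neuroblastoma markers, Th and Dbh were not analysed here, and the other 6 summed to 1745 CPM in Neuro2A and 134 to 609 in the remaining plates. All 5 plates used the same 96 barcodes. In plate totals, not matched by barcode, 199 genes strong in MEF had in ES replicate 3 a median of 10.8% of their MEF reads. Likewise, 134 genes strong in Neuro2A had a median of 9.43% of their Neuro2A reads in MEF.

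The barcodes that carried most Lars2 reads in MEF are printed because all 5 also held Lars2 reads in ES replicate 3, and ctgtA and cactA many in Neuro2A. They are written 5′ to 3′. The last base is in capitals since most Lars2 reads of ES replicate 3, Neuro2A and MEF lay at barcodes ending in A.
Barcode 1: ctgtA
Barcode 2: cagaA
Barcode 3: catgT
Barcode 4: cctaA
Barcode 5: cactA

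The stretch just before the annotated start of the genes is shown next, since base composition there is a feature that played no part in choosing them. Each line gives 100 bases in RefSeq's GRCm38.p6 table, read along the gene's own strand, with CG pairs in capitals. Cd81 is at chr7:143052650-143052749 on the plus strand, the first of 3 listed Rtn4 starts at chr11:29692798-29692897 on the plus strand, Tardbp at chr4:148626997-148627096 on the minus strand and Lars2 at chr9:123366827-123366926 on the plus strand. Of the 5 genes, 4 were found in the table. Tpd52 had no match.
Cd81: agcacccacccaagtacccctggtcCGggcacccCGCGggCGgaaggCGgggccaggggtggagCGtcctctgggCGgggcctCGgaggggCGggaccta
Rtn4: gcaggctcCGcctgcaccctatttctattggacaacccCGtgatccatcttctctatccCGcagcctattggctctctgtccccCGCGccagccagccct
Tardbp: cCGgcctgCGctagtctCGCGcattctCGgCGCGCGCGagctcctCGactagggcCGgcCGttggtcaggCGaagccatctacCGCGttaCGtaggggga
Lars2: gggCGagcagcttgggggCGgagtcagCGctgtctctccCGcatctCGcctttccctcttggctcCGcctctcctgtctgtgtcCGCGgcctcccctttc

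Over the full window of 250 bases before to 50 after the start, Cd81 held 23 CG pairs, Tardbp 27 and Lars2 18. The 3 Rtn4 windows held 15, 35 and 1. The median of all 32851 windows was 7, so 5 of the 6 windows of these genes were richer in CG than the median window. The motif TATAAA, sought on both strands, lay in the Cd81 window 6 bases after the start, outside the stretch shown, and in none of the other 5 windows. It was found in 13.6% of all windows. Neither count says which start was used in these cells.

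Most Tpd52 reads lay in few wells: the 5 highest held 58.3% to 100% of them in each plate. Its plate level, the CPM of the summed wells, was 3378, 1200 and 298 in ES replicates 1, 2 and 3, 133 for Neuro2A and 362 for MEF. The ES plates thus differed among themselves by 11.4 times and overlapped the MEF level. Reads were found in 48 of 93, 23 of 66 and 27 of 94 wells of the ES plates, in 5 of 86 wells of Neuro2A and in 12 of 92 of MEF. The 51.6% of wells in ES replicate 1 compares with 26.9% for the median gene with at least 300 reads there. In the other 4 plates Tpd52 was read in a smaller share of wells than the median gene of that kind. That gene had 81.8% in ES replicate 2 (of 67 genes), 59.6% in ES replicate 3, 40.7% in Neuro2A and 41.3% in MEF. The median ES replicate 1 well had 74.6 CPM, and the median well of the other 4 plates had none. In ES replicate 1, 1 well held 16590 of the 38620 Tpd52 reads (43.0%), which was 10.2% of all 163096 gene reads of that well. A different well of ES replicate 2 gave 5.47% of its 1096 gene reads to Tpd52. At that depth this is 60 reads. The median gene of that kind had 34.7% of its reads in its top well in ES replicate 1, and 1 in 10 such genes had over 76.7%. Without the top well of each plate, the Tpd52 level was 1955 CPM in ES replicate 1, 158 in MEF and 41.7 in Neuro2A. In ES replicate 1, wells whose barcode ends in G held 76.5% of the Tpd52 reads and 31.3% of all gene reads. The part of the barcode in the Tpd52 reads was not tested.

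Cd81 had its unevenness in ES replicates 1 and 2 and not in ES replicate 3. Its plate level was 1159, 1131 and 427 CPM across the ES plates, 157 for Neuro2A and 622 for MEF. All 3 ES plates lay above Neuro2A, as they did for 30.9% of the genes tested, and on both sides of MEF. Wells with reads numbered 55 of 93, 29 of 66 and 71 of 94 for ES, 37 of 86 for Neuro2A and 59 of 92 for MEF. In ES replicate 1, 2 wells held 4259 and 4208 of the 13246 Cd81 reads, and the third held 1089, which was 11.9% of the 9183 gene reads of that well. The top well held 32.2%, 36.7% and 8.56% of the Cd81 reads of ES replicates 1, 2 and 3. The median gene with at least 300 reads had 34.7%, 12.8% and 9.34% in its top well there. The 36.7% lay in the deepest well of ES replicate 2. Among the wells of ES replicate 3 the lowest, median and highest level was 0, 234 and 2518 CPM, while those of ES replicate 1 reached 118589 CPM.

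Rtn4 was read in 53.0% to 83.7% of the wells of each plate. Its plate level was 2601, 3687 and 2383 CPM across the ES plates, 4894 for Neuro2A and 6397 for MEF. All 3 ES plates lay below MEF (28.5% of genes did) and below Neuro2A (25.6% did), and within 1.55 times of each other. Reads were found in 50 of 93, 35 of 66, 75 of 94, 61 of 86 and 77 of 92 wells. The top well held 18.8%, 37.7% and 5.66% of the Rtn4 reads of the ES plates, where the 37.7% again lay in the deepest well of ES replicate 2, without which that plate had 3100 CPM. In MEF the top well held 6.40%, against 22.8% for the median gene, and the 5 highest wells held 29.5%.

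Tardbp lay within 1.35 times across the ES plates. Its plate level was 2856, 2267 and 2118 CPM there, 3621 for Neuro2A and 1626 for MEF. The ES plates lay below Neuro2A and above MEF (as for 31.5% of genes) on this scale. After scaling by TMM factors (trimmed mean of M-values, a correction for composition) they were 2637, 1727 and 2067 CPM and overlapped the MEF value of 2408. Reads were found in 47 of 93, 22 of 66, 63 of 94, 57 of 86 and 51 of 92 wells. The top well of ES replicate 1 held 7352 of 32648 Tardbp reads (22.5%), which was 6.71% of that well, and that of ES replicate 3 held 7.17%.

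Lars2 differed widely between the ES plates and was highest in MEF. Its plate level was 284, 769 and 2342 CPM in ES replicates 1, 2 and 3, 2818 for Neuro2A and 12609 for MEF. All 3 ES plates lay below both other types, and ES replicate 3 was 8.23 times ES replicate 1. Wells with reads numbered 48 of 93, 33 of 66, 73 of 94, 67 of 86 and 87 of 92. The top well held 15.4% of the Lars2 reads of ES replicate 1, 27.2% of ES replicate 2, 39.8% of ES replicate 3, 48.3% of Neuro2A and 40.7% of MEF. Without the top well it was 1423 CPM in ES replicate 3, 1485 in Neuro2A and 7732 in MEF. At barcode cactA, 872 of the 1513 gene reads of the Neuro2A well (57.6%) were Lars2.

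**Figure D1:**
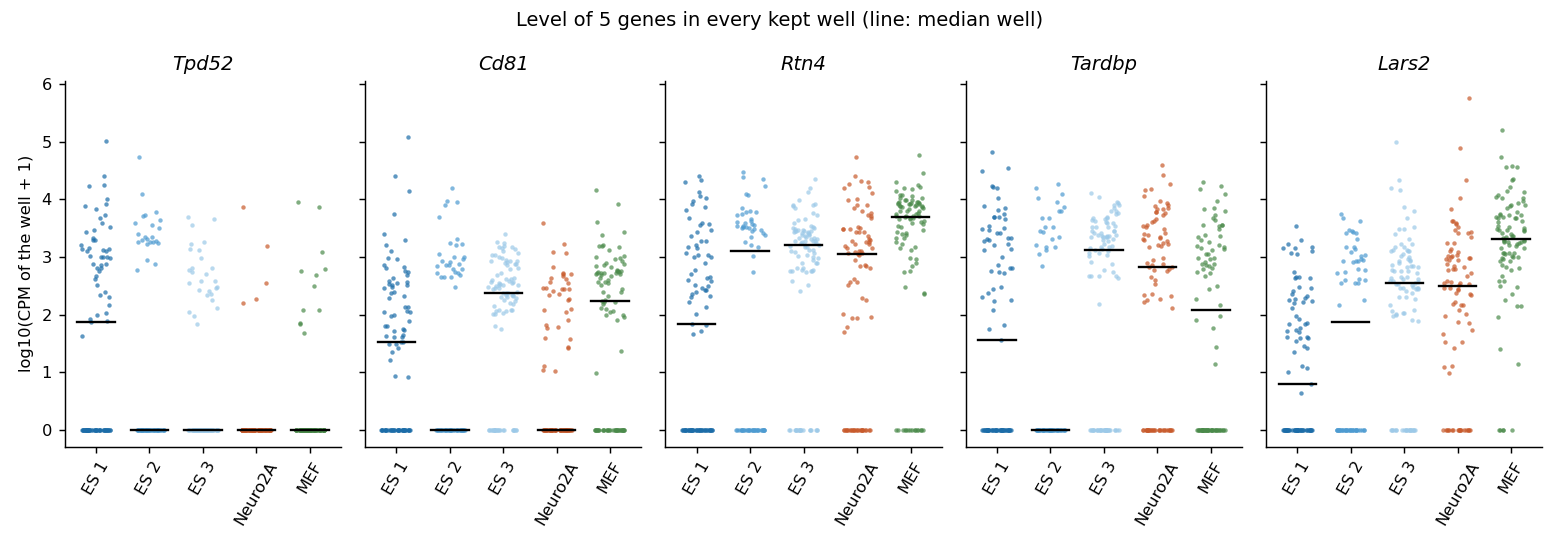
Level of each gene in every kept well of the 5 plates, as log10 of the well's CPM + 1; each point is a well and each line the median well. Wells without a read sit at 0, and the median Tpd52 well is above 0 only in ES replicate 1.

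**Figure D2:**
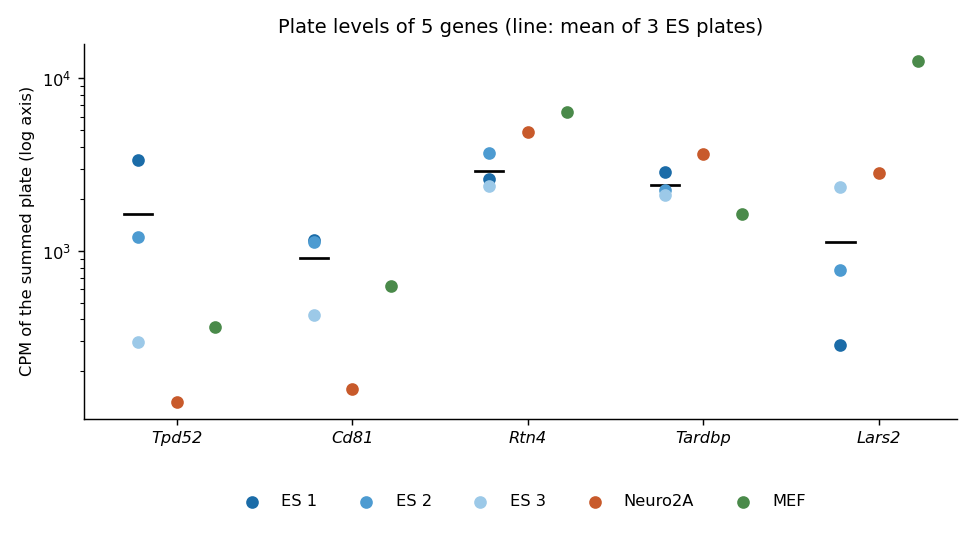
Plate level of each gene, as CPM of the reads summed over kept wells on a log axis; points are plates and the line is the mean of the 3 ES plates. Tpd52 ranges from 298 to 3378 CPM over the ES plates and Tardbp from 2118 to 2856.

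In order to set the spread of these genes against genes of equal level, each kept well was thinned to 1000 gene reads and the squared coefficient of variation over wells was ranked among the 200 genes nearest in mean. A percentile of 95 or more was taken as the top 5%. In the fixed random thinning, only 3 of the 15 values in the ES plates reached it. A different gene did so in each plate: Cd81 in ES replicate 1, Tpd52 in ES replicate 2 and Lars2 in ES replicate 3. None of the 4 values ranked in Neuro2A or the 5 in MEF reached it by this percentile. Over all ranked genes the share in the top 5% was 5.04%, 4.8% and 4.55% in these plates, 4.97% in Neuro2A and 4.96% in MEF. Of 2259 genes read in at least 10% of the wells of every ES plate and ranked in each, 0 reached the top 5% in all 3, and 188 (8.32%) did so in at least 1. Rtn4 and Tardbp reached it in no ES plate, so the description as most uneven does not hold for all 5 genes by this measure. By variance over mean, Rtn4 stood at 78, 97.5 and 94 in ES replicates 1, 2 and 3, and Tardbp at 86.5, 94 and 91. For genes among the highest in mean, the 200 genes used lie mostly below them in mean. Among 100 genes instead, Rtn4 stood at 73, 85 and 82 in ES replicates 1, 2 and 3. Tardbp then stood at 75, 93 and 77. By the mean residual from the trend of spread on level, the measure that had chosen them, Tpd52 ranked 2, Cd81 10, Rtn4 15, Tardbp 18 and Lars2 19 of the 2259. By the mean percentile they ranked 20, 153, 190.5, 174 and 517. Within ES replicates 1, 2 and 3, the residual of Rtn4 ranked 312 of 3767, 24 of 3915 and 157 of 5077 genes. That of Tardbp ranked 140, 46 and 297.

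Tpd52 stood at the percentiles 84.5, 99 and 74 in ES replicates 1, 2 and 3 and 88.5 in MEF. In Neuro2A only 2 wells kept a Tpd52 read after thinning, which was too few to rank. No other of the 5 genes had a lowest value over the ES plates as high as the 74 of Tpd52, but this rested on single wells. Without the well with most of its reads in each plate, Tpd52 stood at 69.5, 87.5 and 58.5 in ES replicates 1, 2 and 3. Rtn4 without its own top wells stood at 69.5, 77 and 66.5, so its lowest value was then the higher. Cd81 stood at 97, 94 and 31.5 across the ES plates, 28.5 for Neuro2A and 74.5 for MEF, so it was above most genes of its level in 3 plates and below them in the other 2. Rtn4, at 73, 77 and 66 in the ES plates and 55.5 in Neuro2A, had 13 in MEF. There the measures differed: its residual from the trend was 0.67, rank 502 of 4376, and its percentile by variance over mean was 75.5. Tardbp gave 75.5, 86.5 and 57 across the ES plates, 46.5 for Neuro2A and 69 for MEF. Lars2 ran from 23.5 and 56 in ES replicates 1 and 2 to 99.5 in ES replicate 3, with 94.5 in Neuro2A and 78 in MEF. By its residual from the trend Lars2 ranked 2939 of 3767 and 1384 of 3915 in ES replicates 1 and 2. It ranked 1 of 5077 in ES replicate 3, 1 of 3803 in Neuro2A and 26 of 4376 in MEF. Over 20 random thinnings the SD of a percentile was 0.205 for Lars2 in ES replicate 3 and 18.3 for Cd81 in the same plate. The mean percentile of Cd81 over them was 95.2 (SD 1.35) in ES replicate 1 and 96 (SD 2.03) in ES replicate 2. By that mean Cd81 was thus in the top 5% in both plates.

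**Figure D3:**
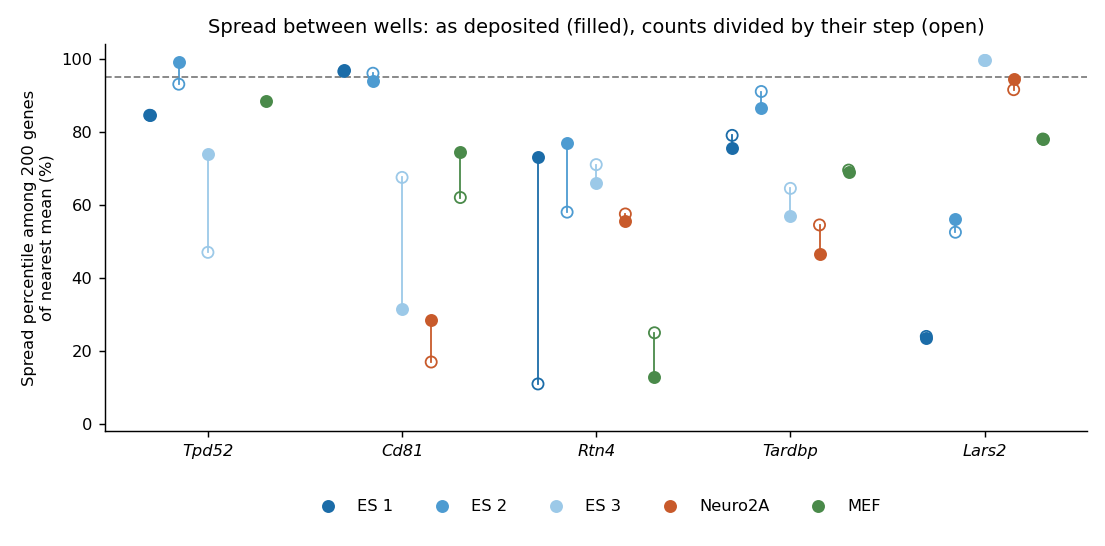
Spread percentile (percent) of each gene among 200 genes of nearest mean, by plate: filled points from the counts as deposited, open points after dividing counts by their step; the dashed line is 95. Cd81 in ES replicate 1 and Lars2 in ES replicate 3 lie above the line both ways, while Tpd52 in ES replicate 2 falls from 99 to 93.

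The deposited counts of Tpd52, Rtn4 and Tardbp were stepped. All 116 nonzero Tpd52 counts over the wells of the 5 plates were multiples of 5, and 5 was the smallest. Of the 308 nonzero Rtn4 counts, 224 (72.7%) were multiples of 5, and of the 242 nonzero Tardbp counts, 176 (72.7%) were even. Cd81 and Lars2 had 15.7% and 14.9% multiples of 5, against 9.14% for the median gene read in at least 10 wells. Of 10859 such genes, 5 had counts that were all multiples of 5: Abi1, Adarb1, Gtf2i, LOC100042427 and Tpd52. A common divisor of 2 or more was found for 663 genes (6.11%). RefSeq lists 8 messenger RNA accessions for Tpd52, 6 for Tardbp, 5 for Rtn4, 3 for Lars2 and 1 for Cd81. Whether isoforms have a part in the steps was not tested.

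The spread was therefore also computed after dividing the counts by their step. Tpd52 then stood at 84.5, 93 and 47 in the ES plates, and could not be ranked in Neuro2A or MEF. Rtn4 went from 73 to 11, 77 to 58 and 66 to 71 in the ES plates, from 55.5 to 57.5 in Neuro2A and from 13 to 25 in MEF. Tardbp gave 79, 91 and 64.5, Cd81 96.5, 96 and 67.5, and Lars2 24, 52.5 and 99.5. The count in the top 5% was again 3 of 15, now Cd81 in ES replicates 1 and 2 and Lars2 in ES replicate 3. Of the genes with a step of 2 or more, 9.01%, 13.6% and 13.1% were in the top 5% of the ES plates, against 4.80%, 4.31% and 3.95% of the genes with a step of 1.

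**Figure D4:**
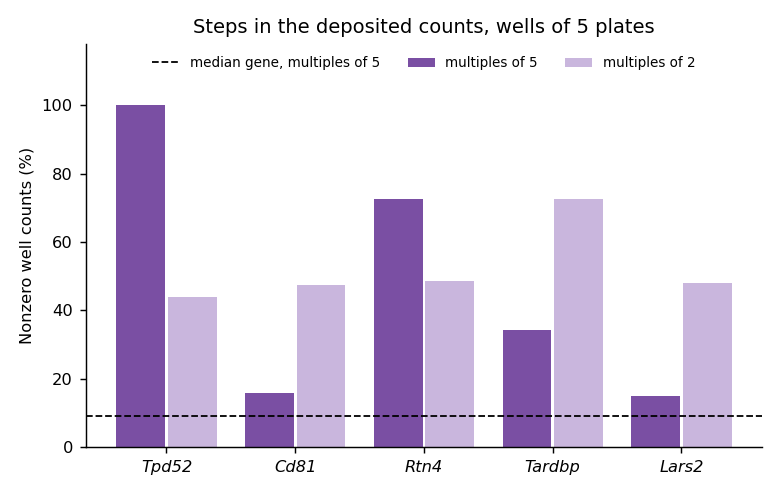
Percent of each gene's nonzero well counts, over the wells of 5 plates, that are multiples of 5 (dark bars) or of 2 (light bars); the dashed line is the median gene's percent of multiples of 5. Tpd52 reaches 100% and Rtn4 72.7% for 5, and Tardbp 72.7% for 2.

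The Lars2 reads of ES replicate 3 followed those of MEF at the same barcode. Barcode ctgtA held the most Lars2 reads in ES replicate 3 (1992), in Neuro2A (4290) and in MEF (15038), with 0 and 1 reads in ES replicates 1 and 2. The 5 barcodes printed above held 79.6% of the Lars2 reads of MEF, 70.9% of ES replicate 3 and 58.1% of Neuro2A, but 0.308% and 11.8% of ES replicates 1 and 2. Of 1009 genes with at least 50 reads in every plate, 6 (0.595%) had the same top barcode in 3 plates, and Lars2 was one of them. At the 12 barcodes highest in MEF, ES replicate 3 had 8.73% to 16.7% of the MEF reads. This lay around the 10.8% found in plate totals for genes strong in MEF. Over the 91 barcodes kept in both plates, Spearman's rho between the Lars2 levels of ES replicate 3 and MEF was 0.58, and the median gene had 0.30. For Neuro2A, rho was 0.40 to MEF (median gene 0.36) and 0.25 to ES replicate 3 (median gene 0.20). Barcodes 2, 3 and 4 held 5, 1 and 0 Lars2 reads in Neuro2A. Wells whose barcode ends in A held 76.4%, 77.6% and 75.7% of the Lars2 reads in ES replicate 3, Neuro2A and MEF and 20.8%, 33.8% and 34.0% of all gene reads. Among genes with at least 300 reads, 0.0648%, 5.36% and 2.32% had a larger share in such wells there. In ES replicates 1 and 2 these wells held 25.9% and 46.5% of the Lars2 reads and 20.6% and 40.9% of all gene reads.

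In a subtraction of reads taken as carried over, each gene in a well of ES replicate 3 lost 10.8% of its MEF reads at that barcode. The Lars2 reads of ES replicate 3 then went from 4999 to 1187 and the Lars2 level from 2342 to 621 CPM. The spread percentile there was 99 after subtraction. The subtraction left Neuro2A as deposited. Lars2 also moved with the share of a well's reads on ribosomal RNA repeats, with rho of 0.36, 0.46 and 0.47 in ES replicate 3, Neuro2A and MEF and 0.15 and 0.24 in ES replicates 1 and 2. The part of ribosomal RNA, of the barcode and of carry-over in the Lars2 reads was not tested.

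**Figure D5:**
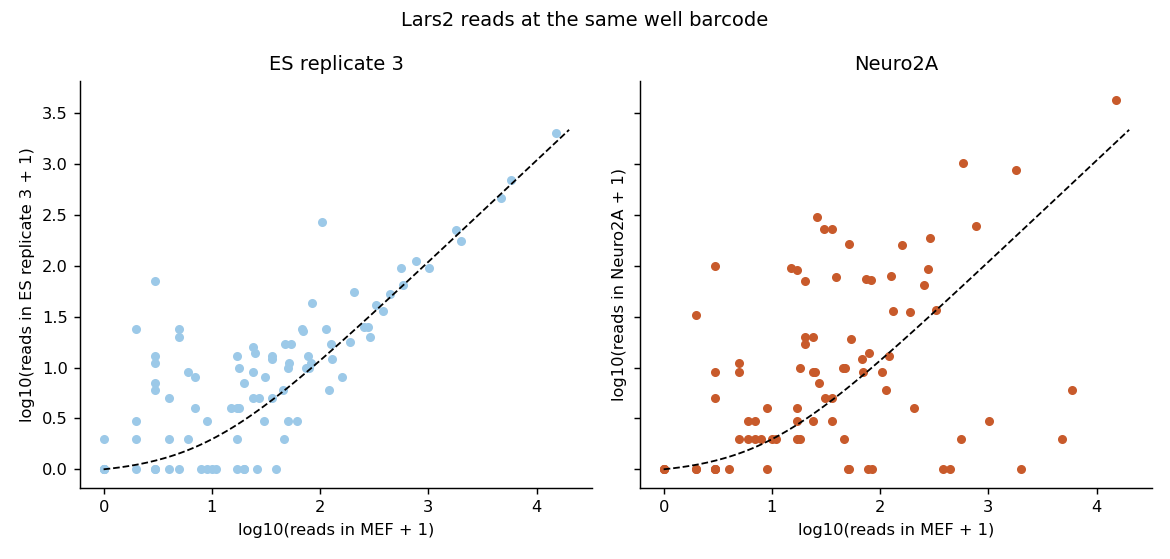
Lars2 reads at the same barcode, as log10 of reads + 1, in MEF against ES replicate 3 (left) and Neuro2A (right); each point is a barcode kept in both plates and the dashed curve is 10.8% of the MEF reads. The points of ES replicate 3 with most MEF reads lie along the curve, while those of Neuro2A scatter on both sides.

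The levels of the 5 genes were correlated over wells in ES replicate 1. The 10 pairs there had rho from 0.34 to 0.53 over 93 wells. In all 3 ES plates the 30 values ran from -0.19 to 0.53 with a median of 0.10. In ES replicate 1 each gene's level also moved with the number of genes read in the well, with rho from 0.54 to 0.67. In ES replicates 2 and 3 that relation ran from 0.05 to 0.35. The wells share depth and detection, and the pairs were not tested.

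By the mean rho over the 3 ES plates (253 wells), the genes most like Tpd52 among 3137 were Clasp2, Pgs1 and Sf3b2, with 0.36 to 0.39. For Cd81 they were Ddx1, LOC100040531 and Serf2 (0.35 to 0.44), and for Rtn4 LOC100039731, Mrp63 and Tuba1a (0.36 to 0.38). Tardbp was most like Pgd, Lage3 and Cdk5rap3 (0.40 to 0.42), and Lars2 most like Bxdc2, Eif3s5 and Cox6a1 (0.33 to 0.36). The median gene had 0.12 to 0.18, and no 2 of the 5 genes shared a nearest gene.

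To ask whether the level of the 5 genes differed between cell types, the plate sums were fitted with edgeR's quasi-likelihood test over 12271 genes. In bulk sums of wells, fewer cells with a transcript and less of it per cell cannot be told apart. No gene was called after Benjamini-Hochberg adjustment, 0% of those tested in either comparison, although 1028 genes (8.38%) against MEF and 1525 (12.4%) against Neuro2A had an unadjusted p under 0.05. DESeq2 called 290 and 1011 genes, and limma on the mean over wells 18 and 154, none of them 1 of the 5. The log2 fold change of Lars2 in ES over MEF was -4.16 ± 1.13 (SE), with an unadjusted p of 0.0107 and an edgeR adjusted p of 0.496. It was below MEF in 3 of 3 ES plates, as were 28.5% of genes. Without ES replicate 1 it was -3.69 and passed, with an edgeR adjusted p of 0.0187, in a fit that called 645 genes. Over all alternatives its adjusted p ran from 0.0187 to 0.834. After subtraction of reads taken as carried over it was -5.29. Rtn4 had -1.91 ± 0.61 against MEF (unadjusted p of 0.0207, edgeR adjusted p of 0.519), also in 3 of 3 plates. Tpd52 differed from MEF by 1.43 ± 1.39, Cd81 by -0.23 ± 0.77 and Tardbp by -0.17 ± 0.67, with edgeR adjusted p of 0.648, 0.906 and 0.928. Without ES replicate 1 the Tpd52 value was 0.18. The median of all genes was -0.08 with TMM factors and 0.67 with library size alone, a scaling under which Cd81 and Tardbp turned to 0.56 and 0.58.

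Against Neuro2A, Cd81 was 2.29 ± 0.91 higher in ES on the log2 scale, with an unadjusted p of 0.0452 and an edgeR adjusted p of 0.398. Tpd52 was 3.42 ± 1.59 higher (edgeR adjusted p of 0.453), and 2.17 higher both without ES replicate 1 and without wells whose barcode ends in G. Both were above Neuro2A in 3 of 3 ES plates, as were 30.9% of genes. Rtn4, Tardbp and Lars2 differed by -0.98 ± 0.63, -0.78 ± 0.65 and -1.45 ± 1.16, with edgeR adjusted p of 0.528, 0.553 and 0.547, and were below Neuro2A in 3 of 3 plates, as were 25.6% of genes. The Lars2 value was -2.57 after subtraction of reads taken as carried over and -2.68 without ES replicate 3. It was -0.98 without ES replicate 1 and -3.60 with limma, and passed in none of these. The median of all genes was 0.91 here. Only the spread among the ES plates entered the fit, whose common dispersion was 1.50 with 2 residual degrees of freedom.

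Relatives of the 5 genes were read from lists by family. No gene of them passed the adjusted test. Against MEF, 3 of 17 tetraspanins (Cd63, Tspan3 and Tspan4) and 4 of 10 reticulons and shapers of the endoplasmic reticulum (Rtn3, Reep3, Reep5 and Ckap4) had an unadjusted p under 0.05, all lower in ES. The list medians were -2.37 and -1.76 on the log2 scale, where Cd81 had -0.23, Rtn4 -1.91 and the median of all genes -0.08. The median of 19 mitochondrial or shared aminoacyl-tRNA synthetases was 1.91, opposite in sign to Lars2.

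In spread, the relatives ranked in all 3 ES plates mostly stood lower than the member of their family. Tpd52l2, the one ranked relative of Tpd52, had a mean percentile of 58.8 over the ES plates against 85.8 for Tpd52. The tetraspanins Cd9 and Cd63 had 40 and 48.2 against 74.2 for Cd81. Of 11 RNA-binding proteins akin to TDP-43 the median was 40.7 and the highest value 79, for Hnrpd, and Tardbp had 73. Arl6ip1 had 17.3, Arl6ip2 71.2 and Rtn4 72. The cytosolic leucyl-tRNA synthetase gene Lars had 45.3 and Lars2 59.7. The median of 10 genes of even expression was 34.1, from 8.83 for Eef1a1 to 60.3 for Pgk1. Since the 5 genes were chosen for high spread, their place above relatives is no finding.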

How the data were processed

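The readme gives the values as raw hits for each feature in each well barcode. The submitters' processing notes name Bowtie. Its version is not given in the sources used here, nor are a build or an annotation, and the labels name no molecular identifiers, so reads are not independent molecules. The counts deposited by the authors were used as they are. Repeats and mitochondrial genes entered neither library sizes nor tests. The 5 genes and all lists were chosen with earlier results of these data known.

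Wells under 1000 gene reads were left out. Levels were tested on reads summed per plate with edgeR 4.0.16 (TMM, filterByExpr, glmQLFTest, Benjamini-Hochberg at 0.05), with limma 3.58.1 and DESeq2 as alternatives. Spread used wells thinned to 1000 reads with a fixed seed, genes with a read in at least 3 wells, and the 100 nearest genes on each side in mean. At either end of the range of means, the 200 genes at that end were used. A step was a gene's common divisor, or 5 for Rtn4 and 2 for Tardbp, rounded up. Reads taken as carried over were subtracted at each barcode at the median share of the source plate. Named relatives were those with the highest and lowest mean spread percentile in each list, and the genes named as alike had the 3 highest mean rho. Some relatives under this rule are not reported here. Scripts were tested on simulated data and used Python 3.11.15 and R 4.3.3.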

Additional observations from a re-analysis of the deposited data

Results flagged for a closer look

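Wells under 1000 gene reads entered no comparison, yet some held reads of the 5 genes above the limit of 3 reads that a count of 0 allows. The 30 such wells of ES replicate 2 held 59 reads of them among 14551 gene reads. The 10 wells of Neuro2A held 26 among 5194, and the 4 wells of MEF held 28 among 2049. The left-out wells of ES replicates 1 and 3 held 0. No group of plates was large enough for a search for outlying samples.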

How the results depend on the processing

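The count of genes called was 0 in both comparisons and under most alternatives. Against MEF and Neuro2A it was 645 and 1438 without ES replicate 1, 290 and 1011 with DESeq2, 9 and 82 with no filter beyond 1 read, and 18 and 154 with limma on the mean over wells. Leaving out each ES plate in turn thus gave 0 to 645 against MEF and 0 to 1438 against Neuro2A. Of 130 recomputed log2 fold changes of the 5 genes, 115 kept their direction and side, 14 turned, all of Cd81 or Tardbp against MEF, and 1 (Lars2 without ES replicate 1) came to pass. The turned values of Cd81 were 0.56 with library size alone, 0.36 with no filter, 0.093 with at least 2000 reads per well, 0.66 without barcodes ending in G, 0.54 with limma, and 0.28 and 0.42 without ES replicates 2 and 3, in a range of -0.51 to 0.42 over the plates left out. Those of Tardbp were 0.58, 0.41, 0.16, 0.18, 0.40, 0.54 and 0.20 in the same order, in a range of -0.33 to 0.54. The cause was not tested. The values in the top 5% of spread numbered 2 to 4 of 15 in the ES plates under all alternatives, and in Neuro2A and MEF 0, or 1 with all reads as shares, without the top well, or with variance over mean. Dividing by the step and leaving out the deepest well of ES replicate 2 were chosen after seeing the data. No paired analysis was possible because the labels give no replicate numbers and Neuro2A and MEF have 1 plate each. Depth limits ES replicate 2 most, where 3 reads are 11.4 CPM.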

Other observations

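The top wells of the 5 genes overlapped in part. In ES replicate 1 the 25 places given by the 5 highest wells of each gene fell on 18 wells, of which 6 served 2 or more of the genes, and in MEF they also fell on 18 wells, of which 7 did. Tpd52 had its highest well at the same barcode in ES replicate 3 and in MEF, with 110 and 610 reads. Of 1009 genes with at least 50 reads in every plate, 196 (19.4%) shared a top barcode in 2 plates. Among the families, the genes with a step of 2 or more that were ranked in all ES plates, chosen after their values were seen, were Hnrpa1, Hnrpd and Rtn3 beside Tpd52, Rtn4 and Tardbp, with mean spread percentiles of 61.7, 79 and 68.8. The other 3 had 85.8, 72 and 73.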
